A study of Mus musculus with 6 samples.

Results

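The cytoplasmic ribosomal protein genes code for the proteins that, together with ribosomal RNA, make up the large and small subunits of the ribosome. They were taken from the count tables by name: symbols beginning with Rpl or Rps followed by a number, with the usual letter suffixes, plus Rplp0, Rplp1, Rplp2 and Rpsa, and without names marked -ps or the Rps6k kinases. This gave 88 genes of 53657 names, 52 of the large subunit and 36 of the small subunit. Genes were admitted by name alone and by no measured value, but the family itself was chosen with earlier results of these data known. In the GENCODE vM21 annotation 84 of the 88 are protein-coding genes, Rps3a2, Rps3a3 and Rps12l1 are processed pseudogenes, and Rps4l is a transcribed processed pseudogene, so the name rule also admits gene copies that may make no protein.

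RNA was measured in 3 WT and 3 MUT adult mice, all carrying the Gfra1-creERT2 driver and the tdTomato reporter (tdTom fl/-). MUT mice also carried the FR-Hras G12V allele (fl/-). Tamoxifen-induced recombination under the Gfra1 promoter leaves the recombined germ cells, and not the whole mouse, heterozygous for Hras G12V. From its variant calls the paper puts most of the sorted MUT cells as recombined. WT mice were littermates without the FR-Hras allele. Both groups had received tamoxifen, were on a mixed background, and were sorted 3 months later for tdTomato+ MCAM-bright undifferentiated spermatogonia (A_undiff), the germ cells that hold the spermatogonial stem cells. The comparison of MUT with WT asks what the activated Ras allele does to the transcriptome of these cells.

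Ribosomal proteins are needed in near-equal numbers, and their mRNAs are among the most abundant of any growing cell. Most of these mRNAs begin with a C followed by an unbroken run of pyrimidines, the 5′ terminal oligopyrimidine (TOP) tract, through which mTORC1 signalling and the binding protein LARP1 set how well they are translated. In the testis the family has a further feature: several members on the X chromosome, which is silenced during male meiosis, have autosomal copies used by male germ cells, of which Rpl10l and Rpl39l are the best known.

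The tracts at the start of these genes are shown first because they are the feature the family is known for. Of the 88 genes 64 were matched by symbol in the RefSeq promoter table (GRCm38.p6). A C followed by at least 4 bases that are each C or T stood exactly at the annotated start in 13 of 64 members (20.3%), against 3.01% of all 27025 genes in the table, read on the coding strand. Within 10 bases of the start the same pattern began in 60.9% of members and 34.4% of all genes. The lines below give 30 bases around the RefSeq start, 5′ to 3′ on the coding strand, with the run of C and T that begins at the start in capitals. The first 5 were picked from the 13 members with such a tract. The last 3, from the X-linked and testis-type paralogs described below, have none at that position. In this they are like most members in the table, among them Rplp0, Rpl4 and Rpsa, so the lines show no contrast particular to these paralogs. The counts rest on annotated RefSeq starts, and the first base of each mRNA was not measured.
Rpl15: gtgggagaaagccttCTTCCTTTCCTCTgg
Rpl35: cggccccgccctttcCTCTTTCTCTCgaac
Rps10: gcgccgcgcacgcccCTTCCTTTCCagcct
Rps18: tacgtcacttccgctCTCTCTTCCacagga
Rps6: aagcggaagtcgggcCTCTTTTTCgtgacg
Rpl10l: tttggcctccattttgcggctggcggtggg
Rpl39l: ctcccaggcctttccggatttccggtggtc
Rps4x: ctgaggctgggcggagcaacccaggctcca

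These windows lie at chr14:18270972-18271001 (minus strand) for Rpl15, chr2:39005117-39005146 (minus) for Rpl35, chr17:27635230-27635259 (minus) for Rps10, chr17:33955651-33955680 (minus) for Rps18 and chr4:86857353-86857382 (minus) for Rps6. Those of the paralogs lie at chr12:66284387-66284416 (minus) for Rpl10l, chr16:10170213-10170242 (plus) for Rpl39l and chrX:102189377-102189406 (minus) for Rps4x. The promoter windows, from 250 bases before to 50 after the start, held the ETS motif CCGGAAG on either strand in 40.6% of members and 9.93% of all genes. The SP1 motif GGGCGG was found in 62.5% against 38.2%, the YY1 motif AAGATGGC in 9.38% against 3.19%, and the TATA motif TATAAA in 10.9% against 15.7%. Each match describes letters in the window and not bound protein.

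Each library held between 22729292 and 23550433 counted fragments, so 3 counts, taken as the floor for counting error, came to 0.127 to 0.132 CPM (counts scaled to library size). The tdTomato transcript was between 52.6 and 66.4 CPM in all 6 samples, and Hras between 56.8 and 69.9 CPM, a count that takes both alleles together. The 10 markers of undifferentiated spermatogonia, such as Gfra1, Ret and Zbtb16, summed to 2059 to 2632 CPM in WT and 2264 to 2675 CPM in MUT. RNA of other cell types was present too: 6 spermatid markers summed to 869 to 1476 CPM in WT and 601 to 1147 CPM in MUT, and 5 macrophage markers to 505 to 757 CPM in WT and 424 to 555 CPM in MUT, with no marker of either list at 0. The 4 markers of differentiating spermatogonia, Kit, Stra8, Dmrtb1 and Sohlh1, summed to 502 to 563 CPM in WT and 587 to 726 CPM in MUT. Here the sums of the groups did not overlap, and the part of this in the results below was not tested. Taken singly, Stra8 did not overlap (159 to 175 CPM in WT, 185 to 242 CPM in MUT), while Kit, Dmrtb1 and Sohlh1 did. Among the undifferentiated markers Lin28a did not overlap either (324 to 351 CPM in WT, 383 to 430 CPM in MUT), while Gfra1, Ret and Zbtb16 did. Over all genes tested 7.69% had groups that did not overlap. In such bulk RNA fewer cells of a type and less RNA per cell cannot be told apart.

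The ribosomal protein genes took between 2.41% and 2.92% of all counted fragments, and the genotypes did not separate. In order of replicate number the share was 2.41%, 2.48% and 2.92% for the WT mice, and 2.63%, 2.53% and 2.47% for the MUT mice. WT replicate 3 was the highest and WT replicate 1 the lowest, so that WT spanned all 3 MUT values. The group means were 2.60% ± 0.278 (SD, n = 3) for WT, against 2.54% ± 0.0801 (SD, n = 3) for MUT, and the WT mean without replicate 3 was 2.45%. Large subunit genes drew 1.27 to 1.30 times as many fragments as small subunit genes in all 6 samples, with a mean ratio of 1.28 ± 0.0146 (SD, n = 3) for WT, against 1.29 ± 0.0115 (SD, n = 3) for MUT. Fragments were spread unevenly within the family: Rpl4 alone held 6.34% of them, and the 10 genes with the most held 30.7%.

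Levels between genes were compared as CPM after TMM scaling per kilobase of exon, using the exon length in the deposited tables, and are called levels below. Of the 87 genes that passed the filter on low counts, 54 had a mean level over 100, and 27 were among the 100 highest genes of all 19656 tested. The median over the 87 was 132. The exon length is the union over all annotated transcripts and ran from 399 to 6270 bases with a median of 1705, longer than most of the mRNAs themselves, so a gene with long alternative exons has its level understated. Across the 87 genes the level had a Spearman correlation of -0.41 with that length, which enters the level itself as its divisor.

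**Figure D1:**
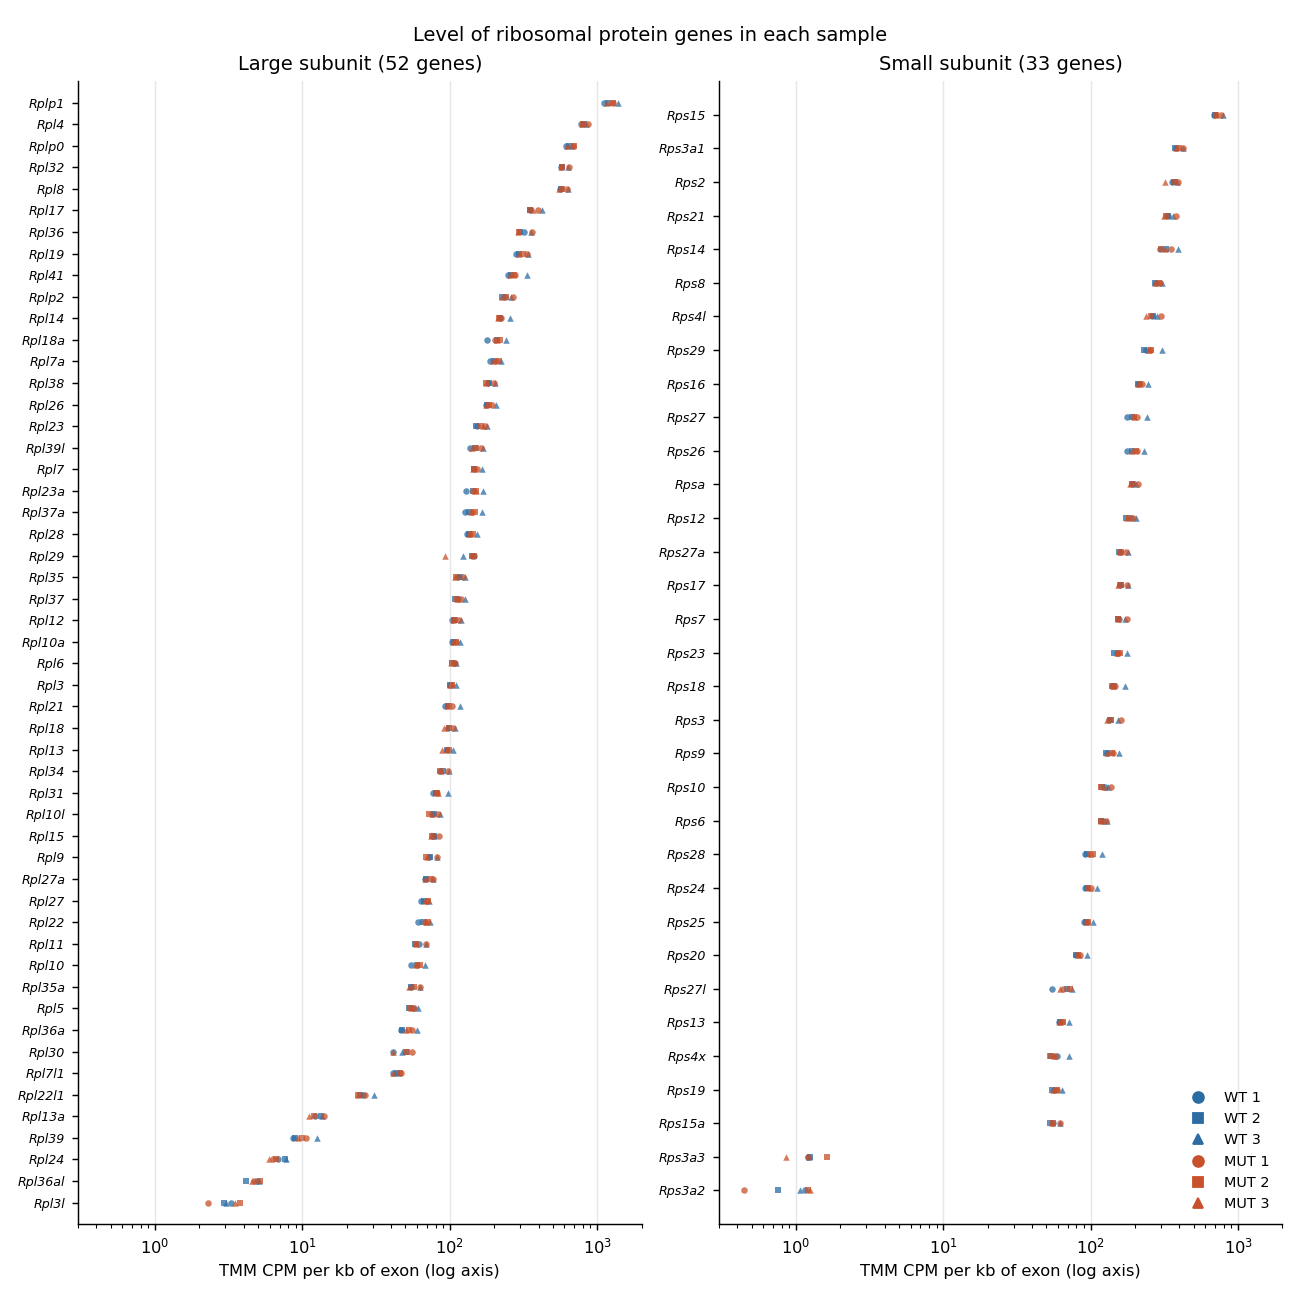
Level of 85 of the 87 tested ribosomal protein genes in each of 6 samples, as CPM per kilobase of exon on a log axis, with large subunit genes on the left and small subunit genes on the right. Colours mark WT and MUT and symbols the replicate number. Most genes lie between 40 and 1000, with a tail of 8 genes under 30, and the symbols of the 6 samples nearly coincide within a gene.

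Rplp1, Rpl4, Rps15 and Rplp0 were among the 5 members with the highest levels. Rplp1, Rplp2 and Rplp0 form the stalk of the large subunit that recruits the elongation factors. Rplp1 stood at 1118, 1191 and 1375 in WT and 1288, 1287 and 1162 in MUT. Its log2 fold change of MUT over WT was 0.02 (standard error 0.099), and the groups overlapped. Rplp0 had 613, 643 and 678 in WT and 683, 691 and 627 in MUT, a log2 fold change of 0.05 (standard error 0.087). Rplp2, at 241 ± 16.5 (SD, n = 3) for WT, against 244 ± 21.4 (SD, n = 3) for MUT, was far below its partner Rplp1 on this scale. The exon length is 499 bases for Rplp1 and 2072 for Rplp2, and on the plain CPM scale, without the length, the means were 617 for Rplp1 and 502 for Rplp2.

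Among the other high members, Rpl4 stood at 809 ± 27.5 (SD, n = 3) for WT, against 819 ± 45.6 (SD, n = 3) for MUT, and Rps15 at 724 ± 59.1 and 725 ± 31.2. The ranges of Rpl4 and Rps15 over the 6 samples overlapped, but within each of the 6 the order of these genes was the same, with Rplp1 first, then Rpl4, Rps15 and Rplp0. Rpsa, the laminin receptor precursor of the small subunit, was at 195 ± 7.65 in WT and 195 ± 12.3 in MUT. Rps6, the small subunit protein phosphorylated by S6 kinase downstream of mTORC1, had levels of 121, 117 and 129 in WT and 128, 117 and 118 in MUT. Its log2 fold change was -0.02 (standard error 0.071), with a 95% interval from -0.18 to 0.14.

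No ribosomal protein gene passed the test for a difference between the genotypes. With edgeR's quasi-likelihood test 0 of 87 members passed an adjusted p of 0.1, beside 0.0102% of all genes tested (2 of 19656), and 0 had an unadjusted p under 0.05, beside 2.78%, of which 1.34% were higher and 1.44% lower in MUT. DESeq2 also gave 0 members at either threshold, beside 1.18% of its genes at an unadjusted p under 0.05, and so did edgeR with the replicate number as a block, beside 6.6%. The smallest unadjusted p of any member was 0.12 (Rpl24), and no member had an adjusted p below 0.998. Replicates are separate mice, and with 3 against 3 an exact permutation test of a single value cannot give a p below 0.1.

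The fold changes were small as well as uncalled. The median log2 fold change over the 87 members was -0.0084, beside 0.0066 over all genes tested, and members ran from -0.23 (Rpl24) to 0.09 (Rpl30). The median was -0.0035 for the 52 large subunit genes and -0.015 for the 35 small subunit genes tested. Fold changes were above 0 for 33 members and below 0 for 54, where 51.8% of all genes were above 0. The 95% interval lay wholly within 0.5 of 0 on the log2 scale for 83 of 87 members, against 52.9% of all genes, most of which had fewer counts. The 4 members with wider intervals were Rpl24 (-0.55 to 0.08), Rpl3l (-0.43 to 0.53), Rps3a2 (-0.96 to 0.88) and Rps3a3 (-0.65 to 0.68), all among the lowest in counts.

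**Figure D2:**
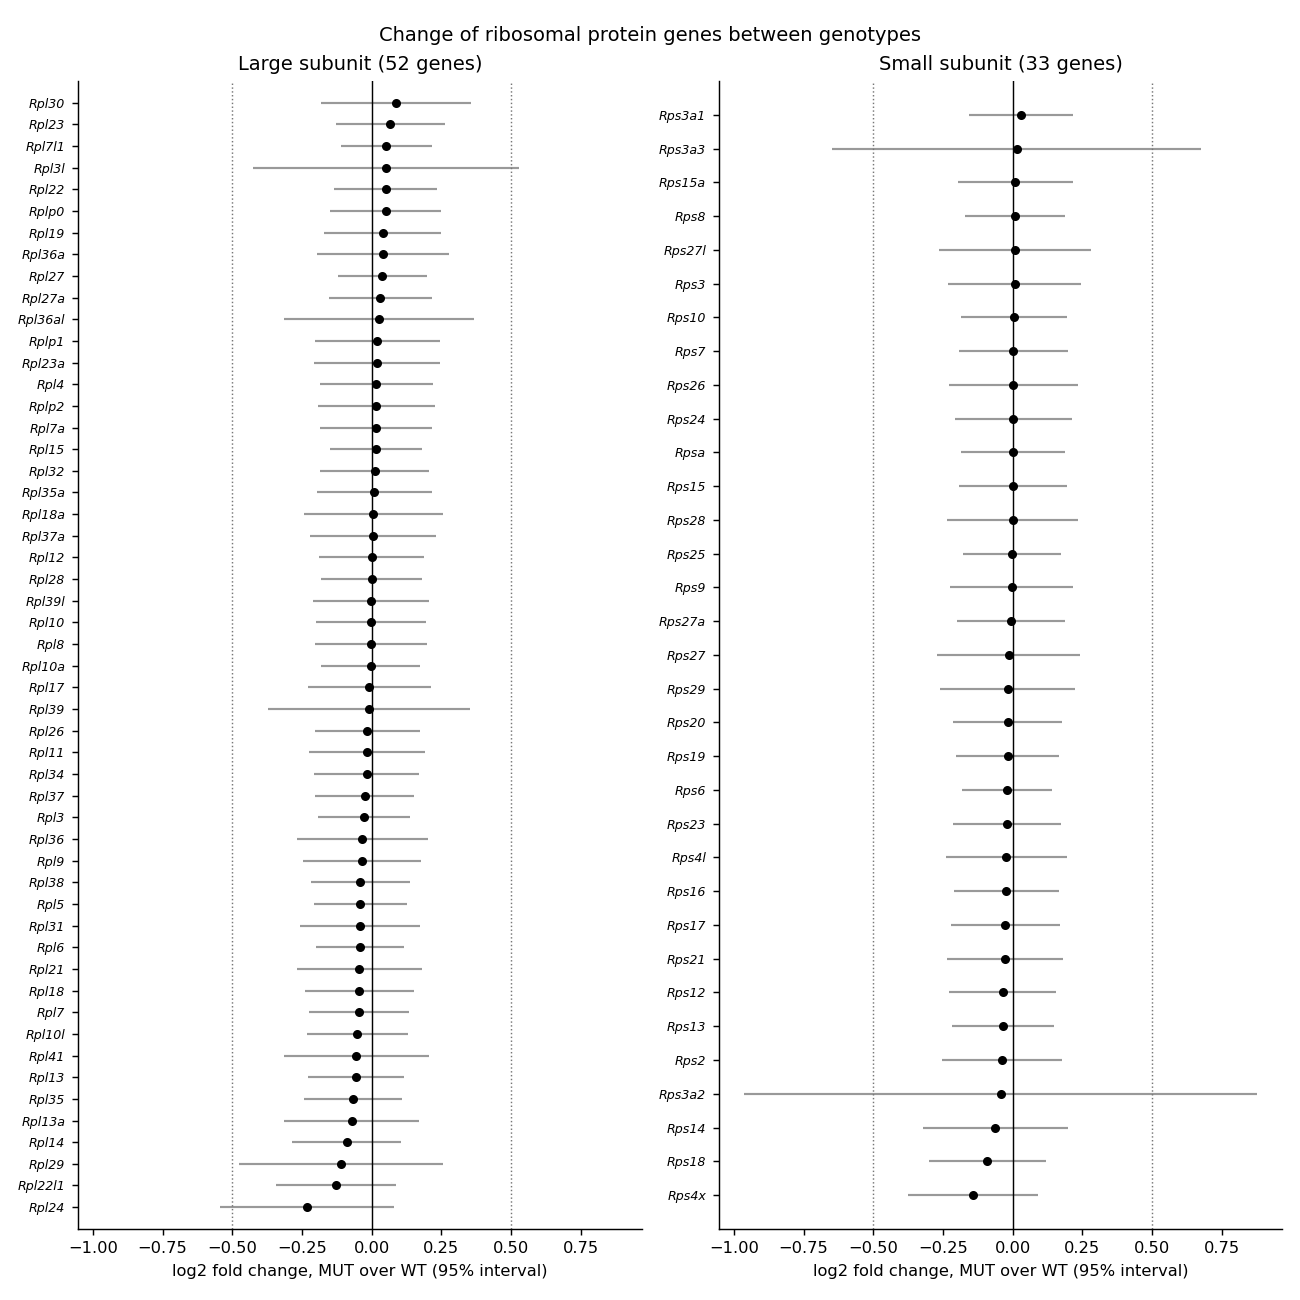
Log2 fold change of MUT over WT for 85 of the 87 tested genes (points) with its 95% interval from edgeR's quasi-likelihood fit (lines), sorted within the large subunit (left) and small subunit (right). The solid line marks 0 and the dotted lines 0.5 on either side, and all 85 intervals shown include 0.

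The genotypes failed to overlap in only 1 member, Rpl24, which lay lower in MUT. Over all genes tested 7.69% had groups that did not overlap, 3.0% with MUT wholly below and 4.69% with MUT wholly above. Rpl24, a protein of the large subunit at the bridge between the subunits, had 160, 184 and 189 counts in WT and 149, 156 and 144 counts in MUT, a log2 fold change of -0.23 (standard error 0.14). These counts are far below those of its neighbours in the ribosome. In the annotation 47.0% of its exon bases are also covered by another gene name, and 81.7% of the 50-base stretches of its transcript occur in other genes, and fragments that fit several genes or places were not counted. The level of Rpl24 in these tables is therefore a lower limit.

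The other members with the smallest unadjusted p among those lower in MUT were Rps4x, Rpl22l1, Rpl14 and Rps18. Rps4x, the X-linked small subunit protein, had 2194, 2056 and 2737 counts in WT and 2122, 1987 and 2165 in MUT, and WT replicate 3 alone lay clear of the rest. Its log2 fold change was -0.14 (standard error 0.10) and moved to -0.02 without WT replicate 3. Without WT replicate 2 it was -0.24 with an unadjusted p of 0.045, the 1 member lower at that threshold, beside 2.22% of all genes. Rpl22l1, a paralog of the RNA-binding large subunit protein Rpl22, had 1180, 1149 and 1433 counts in WT and 1201, 1091 and 1117 in MUT (log2 fold change -0.13, standard error 0.094). Rpl14 and Rps18 had log2 fold changes of -0.09 each, again with WT replicate 3 the highest sample.

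In the other direction the smallest unadjusted p belonged to Rpl23, Rpl30, Rpl7l1, Rpl22 and Rplp0, with log2 fold changes between 0.05 and 0.09. Rpl23, one of the large subunit proteins that bind the p53 regulator Mdm2, had 6162, 6210 and 7469 counts in WT and 7003, 6635 and 6947 in MUT. All 3 MUT counts fell between the lower pair of WT samples and WT replicate 3.

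The clearest pattern in the family was between samples and not between genotypes: the members shifted together. For the 84 genes that reached 100 counts in all samples, each gene's log2 CPM was compared with its own mean over the 6 samples. The median of these differences was -0.07, -0.05 and 0.13 for the WT mice in order of number, and 0.06, -0.01 and -0.06 for the MUT mice, while the median over all genes tested stayed between -0.00056 and 0.017. In WT replicate 3, 82 of 84 members lay above their mean and 62 had their highest value, whereas 26.7% of all genes tested were highest there. Large and small subunit genes moved alike, with medians of 0.13 and 0.14 in that sample.

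**Figure D3:**
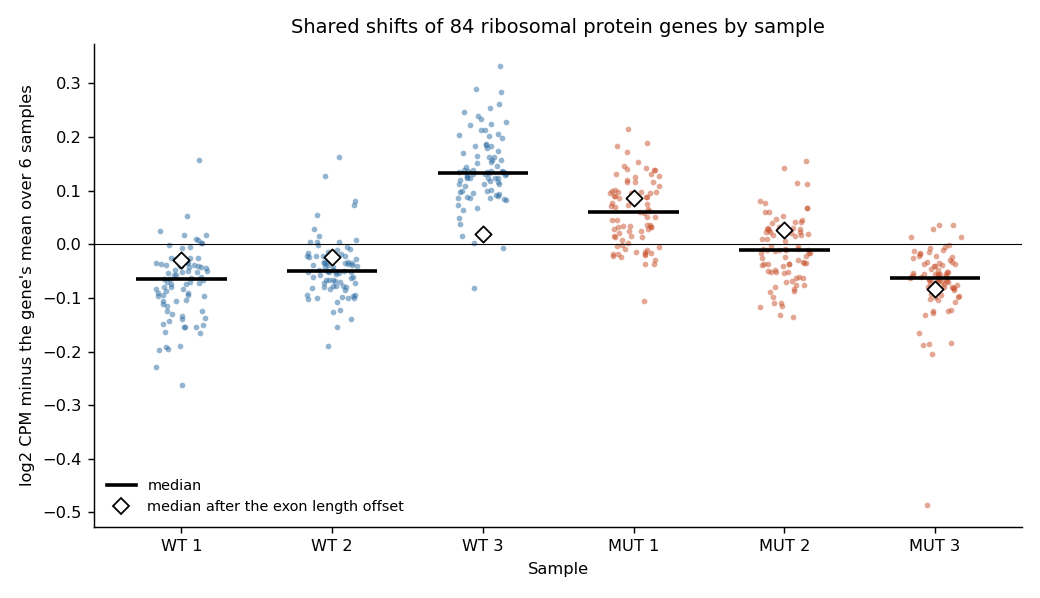
Difference of log2 CPM from the gene's mean over 6 samples for 84 ribosomal protein genes (points) in each sample, with their median (bars) and the median after an exon length offset (diamonds). WT replicate 3 stands highest at 0.13 and falls to 0.02 after the offset.

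In WT replicate 3 short transcripts as a class were high too. When all genes tested were split into 5 equal groups by exon length, the median difference in WT replicate 3 ran from 0.16 in the shortest group to -0.12 in the longest, and 35 and 33 of the 84 members fell into the shortest 2 groups, with lengths up to 2842 bases. In both MUT replicate 1 and MUT replicate 3 the shortest group went against the members: it was at -0.06 where the members' median was 0.06, and at 0.08 where it was -0.06. A smooth offset for exon length, fitted within each sample over all genes, brought the members' median to 0.02 in WT replicate 3 but took MUT replicate 1 to 0.09, where 41 of 84 members then peaked, and MUT replicate 3 to -0.08, so the offset did not remove the shared shifts as a whole. WT replicate 3 also had the highest sums of the spermatid (1476 CPM) and macrophage markers (757 CPM) and the lowest of the undifferentiated markers (2059 CPM). The next highest spermatid sums were in WT replicate 1 (1165 CPM) and MUT replicate 3 (1147 CPM), where the members' medians were -0.07 and -0.06. MUT replicate 1, with a members' median of 0.06, had the highest undifferentiated sum (2675 CPM). The next highest was in WT replicate 1 (2632 CPM), where the members' median of -0.07 was the lowest of the 6 samples. The part of cell makeup in the shifts was not tested. With the length offset the median log2 fold change over the members was 0.03, and 0 members had an unadjusted p under 0.05.

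Which sample is left out therefore decides the sign of the family's median. It was 0.06 without WT replicate 3 and -0.06 without WT replicate 1. Without WT replicate 3, 4 members had an unadjusted p under 0.05, all higher in MUT, beside 3.63% of all genes in either direction and 1.76% in that direction. They were Rpl23 (log2 fold change 0.15, standard error 0.053), Rpl36a (0.17, 0.063), Rps28 (0.13, 0.053) and Rps29 (0.12, 0.050), the last 2 named here after their values were seen, and each had an adjusted p of 0.999 in that edgeR fit.

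Once the shared shift was removed, single members varied little. After subtracting the members' median in each sample, the SD over the 6 samples had a median of 0.05 on the log2 scale and was under 0.1 for 76 of 84 genes. Rpl26, with an SD of 0.0092, did not vary by more than counting error allows. The median gene still varied 2.61 times as much as counting error alone.

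Rpl29 and Rpl30 stood furthest from the common course among the well-counted members, and are named here after their values were seen. Rpl29, a small basic protein of the large subunit, had 3737, 3741 and 3273 counts in WT and 3657, 3761 and 2445 in MUT, so that both replicates numbered 3 were low where most members in WT replicate 3 were high. Its SD after removing the shared shift was 0.26, which is 10.6 times its counting error. Its log2 fold change was -0.11 (standard error 0.16), and 0.07 without MUT replicate 3. Rpl30, which is known to regulate its own splicing in yeast, had 2858, 3541 and 3371 counts in WT and 3800, 3567 and 2904 in MUT, with the lowest values in WT replicate 1 and MUT replicate 3 and an SD of 0.15 after the shift. Its log2 fold change of 0.09 (standard error 0.12) turned to -0.0079 without MUT replicate 1.

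**Figure D4:**
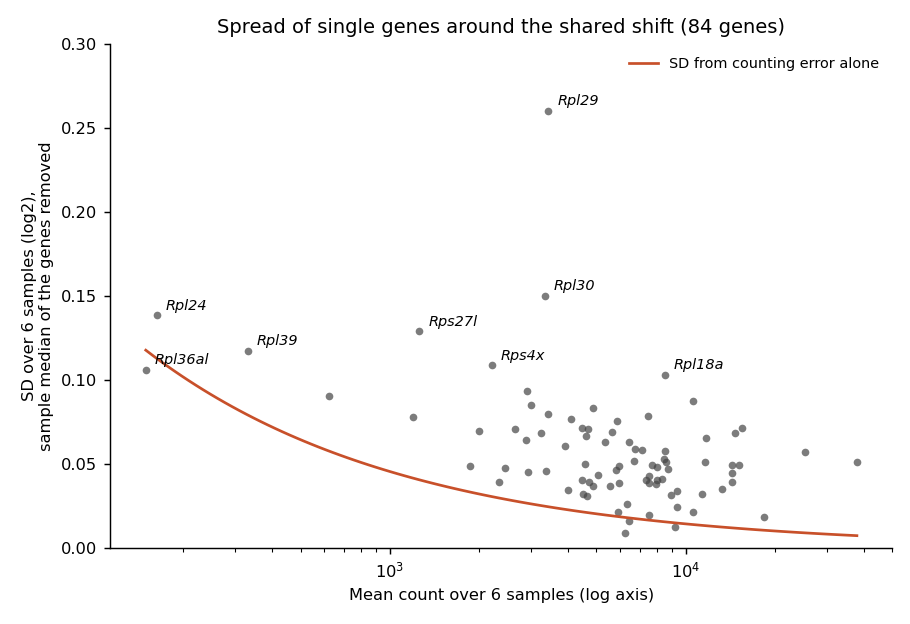
SD over 6 samples of log2 CPM after the members' median in each sample was subtracted, against the gene's mean count (log axis), for 84 genes. The line is the SD that counting error alone would give, most genes lie above it by a small margin, and Rpl29 at 0.26 and Rpl30 at 0.15 stand apart from genes of like counts.

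In these sorted cells Rpl39l and Rps4l, copies on autosomes, were counted well above their X-linked parents, with and without the length term. Spermatid RNA was present in the samples, as given above, and its part in these levels was not tested. The paralog sets were compared as the ratio of levels per kilobase of exon within a sample. Rpl39l, on chromosome 16, had 2613, 2904 and 3308 counts in WT and 3099, 2879 and 2747 in MUT, where the X-linked Rpl39 had 284, 298 and 423 in WT and 345, 331 and 311 in MUT. The ratio of Rpl39l to Rpl39 was 15.4 ± 1.71 (SD, n = 3) for WT, against 15.3 ± 0.246 (SD, n = 3) for MUT, and between 13.5 and 16.8 in every sample. Both proteins sit at the exit tunnel of the large subunit, through which the new chain leaves.

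The coding sequences of the pair are shown because the reads can tell the genes apart. They are 156 bases each, stop codon included, from GENCODE vM21 on GRCm38, with the 23 bases at which they differ in capitals (85.3% identity).
Rpl39: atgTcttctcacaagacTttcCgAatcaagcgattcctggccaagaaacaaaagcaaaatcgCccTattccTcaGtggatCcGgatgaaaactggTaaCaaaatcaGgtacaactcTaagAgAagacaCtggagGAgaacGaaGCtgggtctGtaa
Rpl39l: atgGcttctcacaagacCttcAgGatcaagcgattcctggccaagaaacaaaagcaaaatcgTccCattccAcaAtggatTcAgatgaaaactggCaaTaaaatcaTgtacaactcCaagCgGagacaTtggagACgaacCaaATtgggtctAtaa

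The coding bases of Rpl39l are in 1 block, chr16:10174310-10174465 on the plus strand, and those of Rpl39 lie in separate exons between 37082701 and 37085127 on the minus strand of the X chromosome. No stretch of 50 coding bases is shared by the pair. Of the Rpl39l transcript no 50-base stretch occurs in any other annotated gene, while 16.5% of those of Rpl39 do, so the count of Rpl39 may be low by fragments that fit its pseudogenes.

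Rps4l on chromosome 6 was 4.45 ± 0.457 (SD, n = 3) times its X-linked parent Rps4x for WT, against 4.78 ± 0.551 (SD, n = 3) times for MUT, with levels of 238 to 300 for Rps4l and 52.8 to 70.9 for Rps4x. Here the comparison is uneven, since 72.2% of the 50-base stretches of Rps4x occur in other genes and 14.9% of those of Rps4l. Rpl10l, the single-exon copy on chromosome 12 that stands in for Rpl10 in meiosis, was 1.33 ± 0.0652 (SD, n = 3) times Rpl10 for WT, against 1.28 ± 0.113 (SD, n = 3) times for MUT. Its counts were 1778, 1856 and 2084 in WT and 1938, 1712 and 1815 in MUT. Of Rpl10 85.4% of the 50-base stretches occur in other genes, against 7.6% for Rpl10l, and by counts alone Rpl10l had 0.58 to 0.70 times the fragments of Rpl10, so which of the pair is higher depends on the length term.

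The remaining paralogs were below their parents. Rpl22l1 was at 0.40 ± 0.0274 (SD, n = 3) of Rpl22 in WT and 0.36 ± 0.0261 in MUT. Of the 50-base stretches of Rpl22l1 65.6% occur in other genes, against 5.2% for Rpl22, so uncounted fragments may lower this ratio. For Rps27l, Rpl7l1, Rpl36al and Rpl3l, given next, the parent has the larger share. Rps27l, a p53-induced copy of Rps27, was at 0.33 ± 0.0267 of Rps27 in WT and 0.33 ± 0.0308 in MUT. Rpl7l1 stood between 0.27 and 0.31 of Rpl7 in the 6 samples. Rpl36al stood between 0.084 and 0.11 of the X-linked Rpl36a, the only X-linked parent that exceeded its autosomal copy on this scale. Rpl3l, known as the form of striated muscle, was at 0.023 to 0.037 of Rpl3, with 86 to 144 counts a sample. For Rps3a1 the level was 391 ± 25.6 in WT and 399 ± 22.8 in MUT, and its pseudogene copies Rps3a2 and Rps3a3 were at 0.44 to 1.24 and 0.86 to 1.64 with no more than 30 counts in any sample.

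In none of the 8 paralog ratios did the groups separate. The largest difference was that of Rpl22l1 to Rpl22, lower in MUT by 0.18 on the log2 scale (exact two-sided permutation test p = 0.20, adjusted over 8 ratios p = 0.80), where 0.1 is the smallest p that 3 against 3 can give. Within same-numbered samples this ratio was lower in MUT in 3 of 3, and those of Rpl7l1 to Rpl7 and of Rps27l to Rps27 were higher in 3 of 3 (exact two-sided sign-flip permutation test p = 0.25 each, the smallest that 3 pairs can give, and 0.667 adjusted over 8 ratios). For Rpl39l to Rpl39 the difference was -0.0077 (exact permutation p = 1.0). The choice of these ratios followed sight of the levels.

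**Figure D5:**
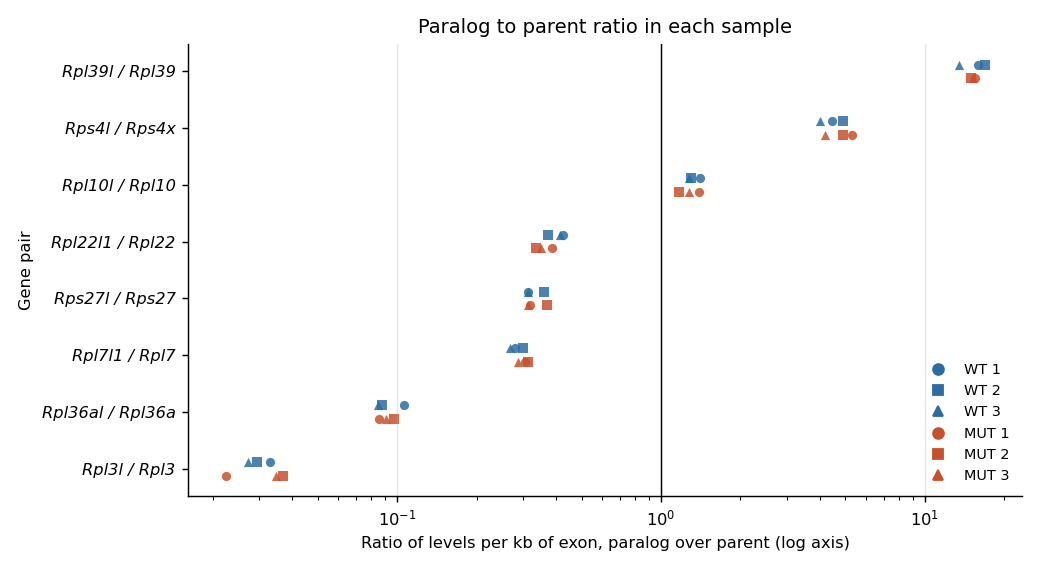
Ratio of the level per kilobase of exon of each paralog to that of its parent in each of the 6 samples, on a log axis, with WT above and MUT below in each row. Rpl39l, Rps4l and Rpl10l lie to the right of 1 and the other 5 to the left, and the genotypes overlap in all 8 rows.

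The 4 X-linked members, Rpl10, Rpl36a, Rpl39 and Rps4x, together held 1.19% to 1.32% of the family's fragments. Their log2 fold changes were -0.0016, 0.04, -0.01 and -0.14 and their median -0.0060, beside -0.0084 for the 83 autosomal members tested. Rpl36a had 1759, 1849 and 2362 counts in WT and 2091, 2023 and 1958 in MUT, with WT replicate 3 highest, as in 62 of the 84 well-counted members. Apart from Rpl39 (9.97) their mean levels were 52.2 to 60.4, which placed them from 71 to 77 among the 87. Of their 50-base stretches 85.4% (Rpl10), 85.5% (Rpl36a), 72.2% (Rps4x) and 16.5% (Rpl39) occur in other genes, so uncounted fragments may lower these levels.

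At the foot of the family were Rps3a2, Rps3a3, Rpl3l, Rpl36al and Rpl24, with mean levels from 0.98 to 6.84. The 1 member that was not tested, Rps12l1, had no count in any sample. All of its exon is overlapped by another gene name and all of its 50-base stretches occur elsewhere, so a fragment from it would not have been counted and the 0 says nothing of its expression. Over the family 40 of 88 members share more than 50% of their 50-base stretches with other genes, and 39 overlap another gene name in their exons. Rpl39l and Rpl3l are among those that share none. Across the 87 tested members the share of repeated stretches had a Spearman correlation of -0.05 with the level.

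Other genes of the translation machinery gave no call either, with 0 genes past an adjusted p of 0.1 and 0 with an unadjusted p under 0.05 in edgeR's test in each of the 6 lists that follow. Of the ribosomal proteins that the name rule misses, Fau and Rack1 (listed as Gnb2l1) had log2 fold changes of -0.08 and 0.02. The 14 elongation factors and other TOP mRNAs had a median log2 fold change of 0.05, with Tpt1 (-0.11, standard error 0.092) and Eif3f (-0.07, 0.070) having the smallest unadjusted p. The 30 initiation factors had a median of 0.02, with Eif2b4 (0.09, standard error 0.063) and Eif2s3x (0.17, 0.12) first. The 12 S6 kinases and regulators of TOP mRNAs had a median of 0.05, led by Eif4ebp1 (0.12, standard error 0.087) and Larp1 (0.09, 0.092).

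Ribosome biogenesis factors and RNA polymerase I subunits, 46 genes, had a median log2 fold change of 0.05. Of these 37 were above 0, where 51.8% of all genes tested were above 0. This was not particular to them. Above 0 were also 10 of the 14 elongation factors and other TOP mRNAs, 21 of the 30 initiation factors and 10 of the 12 S6 kinases and regulators. Of the 76 mitochondrial ribosomal proteins tested 42 were above 0, and of the 3 ribosomal proteins that the name rule misses 1 was. Nolc1, a nucleolar chaperone of ribosome assembly, had 4152, 4392 and 4097 counts in WT and 4808, 4558 and 4401 in MUT. Its log2 fold change was 0.14 (standard error 0.071). It was the 1 gene of the 46 with MUT wholly above WT, beside 4.69% of all genes tested. Ddx21, a nucleolar RNA helicase, had a log2 fold change of 0.13 (standard error 0.075). The 77 mitochondrial ribosomal proteins, 76 of them tested, had a median of 0.0074, with Mrps5 (0.11, standard error 0.074) and Mrpl47 (-0.14, 0.097) first. Their median difference from the mean was 0.11 in WT replicate 3 and -0.12 in WT replicate 1, the same samples that were highest and lowest for the cytoplasmic members, while the biogenesis factors were at -0.0075 in WT replicate 3 and highest, at 0.09, in MUT replicate 1.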

How the data were processed

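The authors sequenced stranded, poly(A)-selected libraries from sorted cells and deposited, for each gene name, the raw count of fragments, made with featureCounts 1.6.2 on GENCODE vM17 (GRCm38.p6) plus tdTomato. Strand was not used, multi-mapping and ambiguous fragments were by default not counted, and the submitters' processing notes name STAR and FastQC. Each sample was grouped by its label, and library totals are given above with the floor of 3 counts, which covers counting error only.

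All 53657 names were fitted in R 4.3.3 with edgeR 4.0.16 (TMM, filterByExpr, quasi-likelihood test, Benjamini-Hochberg adjustment at an FDR of 0.1). Log2 CPM used a prior count of 2. DESeq2 1.42.0, which the study used, other filters and scaling, an exon length offset, the replicate block and leaving out each sample were alternatives, and DESeq2 with the block was added after seeing the data. Scripts were tested on simulated data. Same-numbered samples deviated together over 10583 genes above 10 CPM (correlations 0.30, 0.16 and 0.40), and the numbers come from the labels, which do not name litters. Over the 84 members they were 0.42, 0.35 and 0.60. WT replicate 2 correlated with MUT replicate 1 at 0.33 over all those genes and at 0.14 over the members.

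Members, lists and named genes were chosen with earlier results of these data known. Named were paralogs and parents, X-linked genes, the stalk, Rpsa and Rps6, the 5 highest and 5 lowest levels, the 5 smallest p in each direction and untested members, and of each other list the 2 smallest p. Overlaps come from the exon coordinates deposited with the counts (GENCODE vM17), and repeated 50-base stretches from the transcripts of GENCODE vM21. Results of a few genes are not reported here, and the plots of levels and fold changes leave them out.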

Additional observations from a re-analysis of the deposited data

How the results depend on the processing

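No ribosomal protein gene passed an adjusted p of 0.1 under any of the 14 alternatives. The count with an unadjusted p under 0.05 stayed at 0 under the 8 that kept all samples, the replicate block among them (0 members, where 6.6% of all genes were under 0.05), and ran from 0 to 4 over the 6 that left out a sample, with 1 (Rps4x) without WT replicate 2 and 4 without WT replicate 3. The block, with or without the exon length offset, changed no other call. The family's median log2 fold change ran from -0.0203 to 0.0285 with all samples and from -0.0572 to 0.0576 with 1 left out, each less than the spread between samples away from the main value, and the share of fragments differed between MUT and WT by -0.159 to 0.098 percentage points. The median of the elongation factors and other TOP mRNAs ran from -0.0166 to 0.0745, turning below 0 without MUT replicate 1, and that of the S6 kinases and regulators from 0.0146 to 0.0807. Of 447 refits of the 32 named members tested, none was called and 84 had the opposite sign, all for fold changes whose main interval included 0, which were not counted as reversals. These 84 came from 25 of the 32 members, so the sign of most named fold changes depended on the setting. Sampling 3 mice a group limits detection to changes larger than these intervals, and repeated sequence, overlapping names and exon length limit the comparison of levels between genes.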

Other observations

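Names marked -ps, pseudogenes of the family, are numerous in the annotation and held few of the counted fragments. Copies under other names were not summed, and fragments that fit several places were not counted, which by itself keeps such totals low. The tables list 255 names marked -ps, belonging to 60 of the 88 members. Together they held between 3100 and 3875 fragments a sample, and adding them moved the family's share only from 2.41% to 2.42% in WT replicate 1 and from 2.92% to 2.94% in WT replicate 3. The single name with the most was Rpl14-ps1, the 1 pseudogene name of Rpl14, with 4646 fragments over the 6 samples.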
